A study of Mus musculus with 6 samples.

Results

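The genes described here are 9 receptors of natural killer (NK) cells, *Ncr1*, *Klrb1c*, *Klrd1*, *Klrc1*, *Klrc2*, *Klre1*, *Klrg1*, *Klra7* and *Klra8*. They were taken by symbol from a table of 31053 genes, and all 9 were found in it. Each gene was followed over the 12 cell type labels and 4 libraries of the table, with the labels NK cells, ILC (innate lymphoid cells) and T cell EFF (effector T cells) compared. The cells came from tumors of CT26, a mouse colon carcinoma line, grown under the skin of female Balb/c mice that were not engineered. Tumors were taken 5 days after treatment, CD45+ leukocytes were enriched on beads, and transcripts were counted per cell by unique molecular identifiers (UMIs). The sample labels describe 6 tumors in 3 groups of 2. One group had vehicle, named an isotype control in the study's methods, and the others had a low or a high dose of a bispecific antibody that joins anti-PD-1 to the GITR ligand. The high dose is 30 mg/kg in the labels, whereas the study's figure legends name a single, slightly lower bispecific dose for its single-cell data. The low dose is given as 10 mg/kg by the protocol but as 30 by the treatment label. The table names its 4 libraries M1, M2, M5 and M6, fewer than the 6 tumors, and no source used here pairs these names with the tumors. Which of the 3 groups the libraries cover is therefore not known. No treatment was therefore compared, the libraries were not treated as replicates, and values of single libraries are given in the order M1, M2, M5 and M6.

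NK cells decide whether to kill by weighing activating against inhibitory receptors, many of them C-type lectin-like proteins encoded together in the NK gene complex. *Klrd1* encodes CD94, which pairs with NKG2A (*Klrc1*, inhibitory) or NKG2C (*Klrc2*, activating) to read the nonclassical MHC molecule Qa-1 (*H2-T23*), and the same pairs appear on activated CD8+ T cells. The Ly49 receptors (the *Klra* genes) bind classical MHC class I and are switched on in some NK cells and not in others, so that each cell carries its own combination. *Ncr1* encodes NKp46, an immunoglobulin-like activating receptor and the only member outside the lectin-like family.

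In the GRCm38 annotation, 7 of the 9 genes lay in 1.45 Mb of chromosome 6, from *Klrb1c* at 128778485 to *Klra7* at 130233322. *Klrg1* lay apart on the same chromosome, from 122270596 to 122282882, and *Ncr1* on chromosome 7, from 4337724 to 4345164. RefSeq promoter windows of GRCm38.p6, 250 bases before to 50 bases after the gene start, were matched by symbol for 7 of the 9 genes, all but *Klrd1* and *Klrg1*. The windows were searched on both strands for TGTGGT, the core bound by Runx factors, and for GGTGTG, a core of T-box sites, since factors of both families act in NK cells. At least 1 window of *Ncr1*, *Klrb1c*, *Klrc1*, *Klrc2* and *Klre1* held the Runx core, 5 of 7 genes, against 18.9% of 27025 gene symbols. The T-box core was in none of the 7, against 21.4% of symbols. A match is a description of these letters and not a binding site, and the reference is C57BL/6J, not Balb/c. The 250 bases upstream are printed below for a gene that was low in T cell EFF (*Ncr1*, chr7:4337465-4337714, plus strand), for one that was highest there (*Klrc1*, chr6:129678974-129679223, minus strand) and for the one that differed most between NK cells and ILC (*Klra7*, chr6:130233323-130233572, minus strand). Capitals mark the Runx core or its reverse complement.
Ncr1: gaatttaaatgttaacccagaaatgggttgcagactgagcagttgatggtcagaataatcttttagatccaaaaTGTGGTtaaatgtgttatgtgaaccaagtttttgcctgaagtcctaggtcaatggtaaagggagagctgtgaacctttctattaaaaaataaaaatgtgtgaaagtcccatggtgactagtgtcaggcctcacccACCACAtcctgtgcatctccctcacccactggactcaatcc
Klrc1: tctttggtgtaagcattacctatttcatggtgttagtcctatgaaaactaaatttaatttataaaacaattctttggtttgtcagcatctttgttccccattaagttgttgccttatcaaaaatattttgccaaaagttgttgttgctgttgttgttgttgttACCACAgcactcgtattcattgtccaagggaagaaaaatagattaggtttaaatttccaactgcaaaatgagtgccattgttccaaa
Klra7: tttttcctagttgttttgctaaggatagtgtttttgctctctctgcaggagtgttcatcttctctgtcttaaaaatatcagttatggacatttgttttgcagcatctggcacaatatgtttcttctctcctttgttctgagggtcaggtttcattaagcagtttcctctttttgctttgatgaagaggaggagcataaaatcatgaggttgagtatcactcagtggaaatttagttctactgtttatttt
The *Ncr1* stretch held 2 copies, the *Klrc1* stretch held 1 and the *Klra7* stretch held 0.

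The NK cells label covered 4398 of the 33961 cells in the table, ILC covered 4628 and T cell EFF covered 3633. The median depth was 5397 UMIs per cell in NK cells, 9773.5 in ILC and 10049 in T cell EFF. A level in CPM is the number of UMIs that a gene had among 1000000 UMIs of the label, and intervals are exact 95% intervals that cover counting error only. The authors assigned each cell its label by correlating its whole profile with ImmGen, the Immunological Genome Project, so these genes helped to set them and differences between labels are descriptions without a test. In such data, fewer positive cells and less RNA per cell both lower a CPM, and shares of positive cells are given for that reason. Of 8 NK cell markers, 6 were highest in NK cells and 2 (*Klrd1* and *Tbx21*) in T cell EFF, but 3 of the 8 (*Ncr1*, *Klrb1c* and *Klrd1*) are themselves among the genes described. Markers of type 1 ILC were together higher in ILC than in NK cells, but higher still in T cell EFF. Their 5 genes summed to 256 to 316 CPM in ILC, 99.6 to 107 in NK cells and 627 to 879 in T cell EFF over the libraries. In ILC against NK cells, *Cxcr6* had 110 against 9.40 CPM, *Il7r* 84.9 against 9.76 and *Tnfsf10* 18.6 against 7.36. *Cd200r1* had 8.87 against 1.42 CPM, whereas *Itga1* was lower in ILC, at 69.7 against 75.5. Markers of the T cell and myeloid lists were present in all 3 labels, and none of either list was at 0. The 11 T cell markers summed to 1350 to 1431 CPM in NK cells, 2019.8 to 2242 in ILC and 6929 to 8023 in T cell EFF. In NK cells *Trbc1* had 827 CPM, above the 799 in T cell EFF, and *Trbc2* had 272. All but *Trbc1* were lower in NK cells than in T cell EFF, with *Trac* at 14.4 against 542, *Cd3e* at 9.94 against 448 and *Cd28* at 132 against 272. The sum in NK cells is therefore not a measure of T cell transcripts. The 7 myeloid markers summed to 132 to 372 CPM in NK cells, 705 to 1127 in ILC and 369.9 to 742 in T cell EFF, against 8386 to 10193 in Myeloid cells, and their part in the values below was not tested. Of 33850 distinct barcodes, 111 occurred in more than 1 library.

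The 9 genes together were highest in NK cells, lower in ILC and lowest in T cell EFF, in each library. Their summed level was 2172, 2323, 2279 and 2359 CPM in NK cells, 1786, 2110.1, 2017 and 1916 in ILC, and 1416, 1769, 1566 and 1469 in T cell EFF. The 3 labels did not overlap, but the steps were small, with NK cells 1.175-fold above ILC (1.165 to 1.185) and 1.48-fold above T cell EFF (1.46 to 1.49). Among cells without a UMI of a CD3 chain, which belongs to the T cell receptor complex, the step from ILC to NK cells was 0.038 on the log2 scale in place of 0.23. The sum hid opposite differences. Of the 8 genes with a mean of at least 1 CPM in the labels compared, *Ncr1*, *Klrb1c*, *Klrg1* and *Klra7* were over 2-fold higher in NK cells than in T cell EFF, on the scale of log2(CPM + 1), where 3.42% of 11737 genes were. *Klrc1* and *Klrc2* were over 2-fold higher in T cell EFF than in NK cells, where 6.54% of genes were. These calls are for pooled cells and varied between libraries. *Klrc2* did not pass in M1, at a log2 ratio of -0.997 for NK cells over T cell EFF, and *Klre1* passed in M6, at 1.19. The same first 4 genes were over 2-fold higher in ILC than in T cell EFF, against 3.42% of 11891 genes, and none of the 8 was over 2-fold lower, against 3.79%. Between NK cells and ILC, only *Klra7* passed 2-fold, higher in NK cells, where 0.103% of 11692 genes did, and it did not pass among cells without a CD3 chain, and none was over 2-fold higher in ILC, where 4.53% of genes were. The median log2 ratio of the 8 genes was 2.18 for NK cells over T cell EFF, 1.62 for ILC over T cell EFF and 0.28 for NK cells over ILC, beside -0.08, -0.03 and -0.01 for all genes tested. *Klra8* did not pass the CPM filter and is described last.

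**Figure D1:**
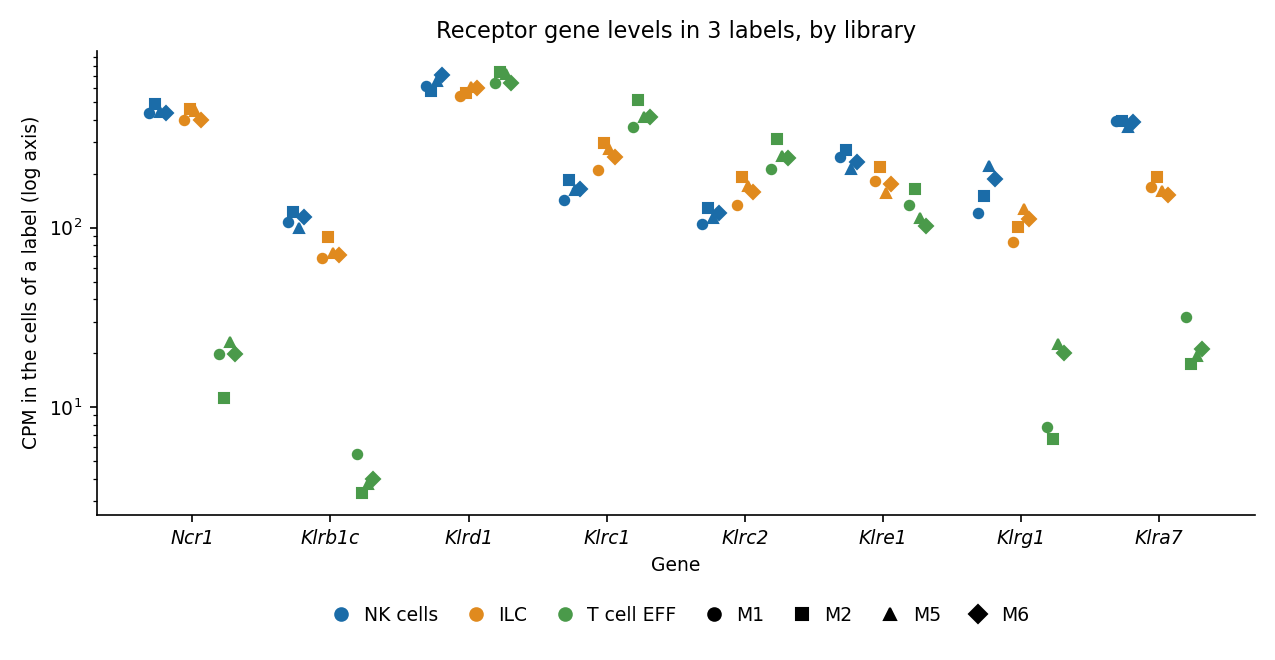
Level of 8 receptor genes in NK cells (blue), ILC (orange) and T cell EFF (green), in CPM on a log axis. Each point is 1 library, with its shape giving the library. *Ncr1*, *Klrb1c*, *Klrg1* and *Klra7* fall to 31.7 CPM or less in T cell EFF, whereas *Klrc1* and *Klrc2* rise from NK cells over ILC to T cell EFF.

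*Ncr1* had 433, 491, 443 and 438 CPM in NK cells, 398, 459.5, 445 and 398 in ILC, and 19.7, 11.2, 23.2 and 19.9 in T cell EFF. NK cells and ILC overlapped, and M5 had the ILC value above that of NK cells, whereas T cell EFF lay far below both in each library. NK cells were 23.5-fold above T cell EFF (22.0 to 25.0) and 1.07-fold above ILC (1.05 to 1.09), but among cells without a CD3 chain NK cells were lower, at 446 against 550.3 CPM. NKp46 carries no signaling motif of its own and works through the adaptors Fc receptor γ (*Fcer1g*) and CD3ζ (*Cd247*). *Fcer1g* had 1125 CPM in NK cells, 1017 in ILC and 266 in T cell EFF, and *Cd247* had 59.7, 49.4 and 97.2.

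*Klrb1c* encodes NKR-P1C, the activating receptor known as the NK1.1 antigen in C57BL/6 mice, which the usual antibody does not detect in Balb/c. Its transcript was present here, at 108, 123, 99.2 and 115 CPM in NK cells and 68.0, 89.2, 72.4 and 70.1 in ILC, and at 5.49, 3.30, 3.74 and 3.98 in T cell EFF. NK cells and ILC did not overlap, and NK cells were higher in each library, by 1.50-fold in the pooled cells (1.44 to 1.56). T cell EFF were 26.9-fold below NK cells (23.4 to 30.9). *Klrb1c* overlaps the predicted gene *Gm44511* on the same strand, so reads of the 2 may not be told apart.

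*Klrd1* was the most abundant of the 9 in NK cells, ILC and T cell EFF and the least selective. NK cells had 618, 576, 660.2 and 712 CPM, ILC had 544, 564, 608 and 600.0, and T cell EFF had 643, 739, 718 and 645. NK cells overlapped with both other labels, and ILC lay below T cell EFF in each library. Pooled over libraries, T cell EFF had 689 CPM, NK cells 649, T cell MEM (memory T cells) 634 and ILC 583. The next labels were NKT at 305 and Myeloid at 149.6 CPM.

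The 2 partners of CD94 were ordered the other way round from *Ncr1*. *Klrc1* had 143, 186, 163 and 165 CPM in NK cells, 209, 295, 276 and 249 in ILC, and 363, 516, 413 and 413 in T cell EFF. The labels did not overlap, and each library showed the order NK cells, ILC, T cell EFF. T cell EFF were 2.57-fold above NK cells (2.505 to 2.65) and 1.66-fold above ILC (1.62 to 1.69). *Klrc2*, the activating partner, had 105, 129, 113 and 120.2 CPM in NK cells, 134, 191, 171 and 159 in ILC, and 211, 311, 252 and 245 in T cell EFF, again with no overlap and in the same order. T cell EFF were 2.17-fold above NK cells (2.09 to 2.24). M1 had the lowest and M2 the highest value of *Klrc1* and of *Klrc2* in each of the 3 labels.

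The proportion of the inhibitory to the activating partner differed less between the 3 labels than the level of either. There were 1.40 UMIs of *Klrc1* per UMI of *Klrc2* in NK cells (1.35 to 1.46), 1.58 in ILC (1.54 to 1.61) and 1.67 in T cell EFF (1.63 to 1.71). The order held without overlap over the libraries, at 1.35 to 1.44 in NK cells, 1.55 to 1.61 in ILC and 1.64 to 1.72 in T cell EFF, and Stroma had 1.60 (1.46 to 1.76). Some transcripts of the 2 genes hold identical stretches. Of 411 stretches of 90 bases in the last 500 bases of the transcript that shared most, *Klrc1* had 134 (32.6%) in common with *Klrc2*, and *Klrc2* had 76 (18.5%) in common with *Klrc1*. Between the ends of the longest transcripts of each gene no such likeness was seen, and the closest end to that of *Klrc1* was *Klra3*, at 50% identity. How far their counts were mixed or lost by this was not tested, and the proportion is uncertain for that reason. The transcript of the ligand Qa-1, *H2-T23*, had 303 CPM in NK cells, 382 in ILC and 461 in T cell EFF, and was highest in NKT, at 655.

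*Klre1*, which pairs with KLRI1 or KLRI2, stood between the 2 patterns. It had 249, 273, 211 and 233 CPM in NK cells, 182, 218, 156 and 176 in ILC, and 134, 164, 114 and 102 in T cell EFF. The ranges of neighbouring labels overlapped, but each library had NK cells highest and T cell EFF lowest. The steps were 1.33-fold from ILC to NK cells (1.29 to 1.36) and 1.88-fold from T cell EFF to NK cells (1.82 to 1.94). Of its 2 partners, *Klri2* had 149 CPM in NK cells, 97.6 in ILC and 18.2 in T cell EFF, and *Klri1* had 21.6, 15.6 and 2.45.

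*Klrg1*, an inhibitory receptor for cadherins that marks mature NK cells and short-lived effector T cells, varied most between libraries in NK cells and in T cell EFF among the 8 genes that passed the filter. It had 120.1, 151, 221 and 187 CPM in NK cells, 82.8, 101, 127 and 111 in ILC, and 7.78, 6.60, 22.5 and 20.1 in T cell EFF. In all 3 labels M1 and M2 had the lower values and M5 and M6 the higher ones, and since the libraries are not tied to treatments no difference between groups can be read from this. NK cells lay above ILC in each library, although the ranges overlapped, and were 1.64-fold higher in the pooled cells (1.59 to 1.70). T cell EFF were 11.6-fold below NK cells (10.8 to 12.5). The cadherin genes *Cdh1* and *Cdh2* had 6.19 CPM or less in these 3 labels. Their highest levels over all labels were 19.2 CPM for *Cdh1* in DC (dendritic cells) and 29.4 for *Cdh2* in Stroma.

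*Klra7*, the inhibitory Ly49G, showed the largest difference between NK cells and ILC among the 8 genes. It had 395, 395, 367 and 388 CPM in NK cells, 168, 193, 161 and 153 in ILC, and 31.7, 17.3, 19.3 and 21.2 in T cell EFF. No ranges overlapped. NK cells were 2.32-fold above ILC (2.26 to 2.38), with 395 against 199.7 CPM among cells without a CD3 chain, and 17.3-fold above T cell EFF (16.3 to 18.4), and ILC were 7.46-fold above T cell EFF (7.02 to 7.93). *Klra7* was 1 of 12 genes in the table over 2-fold higher in NK cells than in ILC. Another Ly49 gene, *Klra4*, led these 12 at 23.01 against 5.30 CPM, and *Itga2*, the integrin subunit known as DX5, had 41.6 against 16.6. The reference was not from Balb/c, and which Ly49 genes gave the UMIs assigned to *Klra4* was not tested. The other 9 of the 12, named after their values were seen, were *S1pr5*, *Ccl5*, *Serpinb9b*, *Elovl7*, *Phactr3*, *Ret*, *Mcam*, *Anln* and *Tmem108*.

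*Klra8*, the activating Ly49H of C57BL/6 mice, was close to absent. NK cells had 3, 6, 9 and 6 UMIs, ILC had 2, 2, 6 and 5, and T cell EFF had 1 in all. This is 0.607 CPM in NK cells and 0.221 in ILC, 2.74 times as much in NK cells with an interval of 1.38 to 5.62. No cell held more than 1 UMI. The Ly49 cluster of Balb/c is smaller than that of C57BL/6, and *Klra8* is not among its known genes. The source of these few UMIs was not tested. In the reference, the 3' end of *Klra8* was 88.0% identical to that of *Klra6*, which had 1 UMI in the 3 labels together.

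Outside the 3 labels, *Ncr1* and *Klrb1c* were next highest in Myeloid cells, at 45.0 and 11.6 CPM, and *Klra7* and *Klrg1* in NKT, at 45.8 and 73.5. *Klrd1*, *Klrc1* and *Klrc2* stayed high in T cell MEM, at 634, 347 and 221 CPM, and in NKT, at 305, 165 and 113. In Stroma, the label with the most cells, the highest of the 9 was *Klrd1* at 5.68 CPM.

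**Figure D2:**
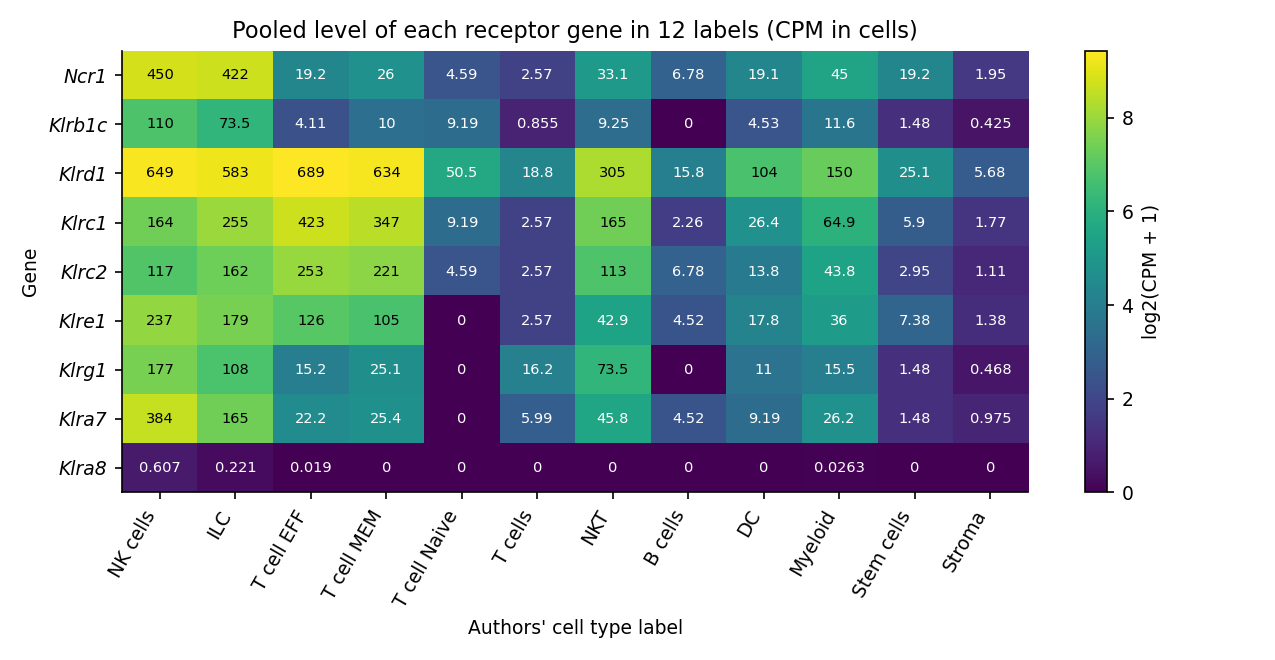
Pooled level of the 9 receptor genes (rows) in the 12 cell type labels of the authors (columns). Color gives log2(CPM + 1) and the number in each cell gives CPM. *Klrd1*, *Klrc1* and *Klrc2* are high from NK cells through T cell MEM and in NKT, whereas *Ncr1*, *Klrb1c* and *Klra7* are high in NK cells and ILC.

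To ask how many cells carried each transcript, every cell was thinned at random to 2000 UMIs, since deeper cells show more genes, and cells below that depth were left out, which removed 180 NK cells, 109 ILC and 88 cells of T cell EFF. A UMI of *Klrd1* was found in 71.2% of NK cells (69.9 to 72.6), 67.2% of ILC and 71.8% of T cell EFF. *Ncr1* was found in 53.5%, 54.4% and 2.17%, and *Klrb1c* in 25.0%, 17.4% and 0.649%. The shares in T cell EFF lay below those in Myeloid cells, at 4.99% for *Ncr1* and 1.69% for *Klrb1c*. *Klrc1* was found in 26.2% of NK cells (24.9 to 27.6), 39.2% of ILC (37.8 to 40.6) and 58.6% of T cell EFF (56.9 to 60.2). *Klrc2* followed with 22.6%, 29.5% and 43.5%, and *Klre1* with 39.2%, 29.9% and 24.6%. *Klrg1* was found in 20.4%, 12.2% and 2.20%, and *Klra7* in 35.0%, 17.9% and 3.30%. In T cell EFF both were near their shares in Myeloid cells, 1.88% and 2.94%. A UMI of *Ncr1*, *Klrb1c*, *Klrg1* or *Klra7* was in 7.62% of T cell EFF and 9.70% of Myeloid cells, but in 0.786% of Stroma and 0.893% of B cells. How far the shares in T cell EFF and Myeloid cells are expression was not tested. *Klra8* was found in 7 of 4218 NK cells, 2 of 4519 ILC and 0 of 3545 T cell EFF, which allows up to 0.0846% of cells with a UMI at this depth and does not limit the share of cells expressing the gene. In Stroma, which should lack these genes, the 9 shares ran from 0 of 15642 cells for *Klra8* to 1.21% for *Klrd1*, at a median depth before thinning of 40692 UMIs. Without thinning, *Ncr1* was found in 80.0% of NK cells, 84.2% of ILC and 8.26% of T cell EFF, *Klrc1* in 48.98%, 74.2% and 87.5%, and *Klra7* in 45.2%, 30.3% and 13.6%.

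**Figure D3:**
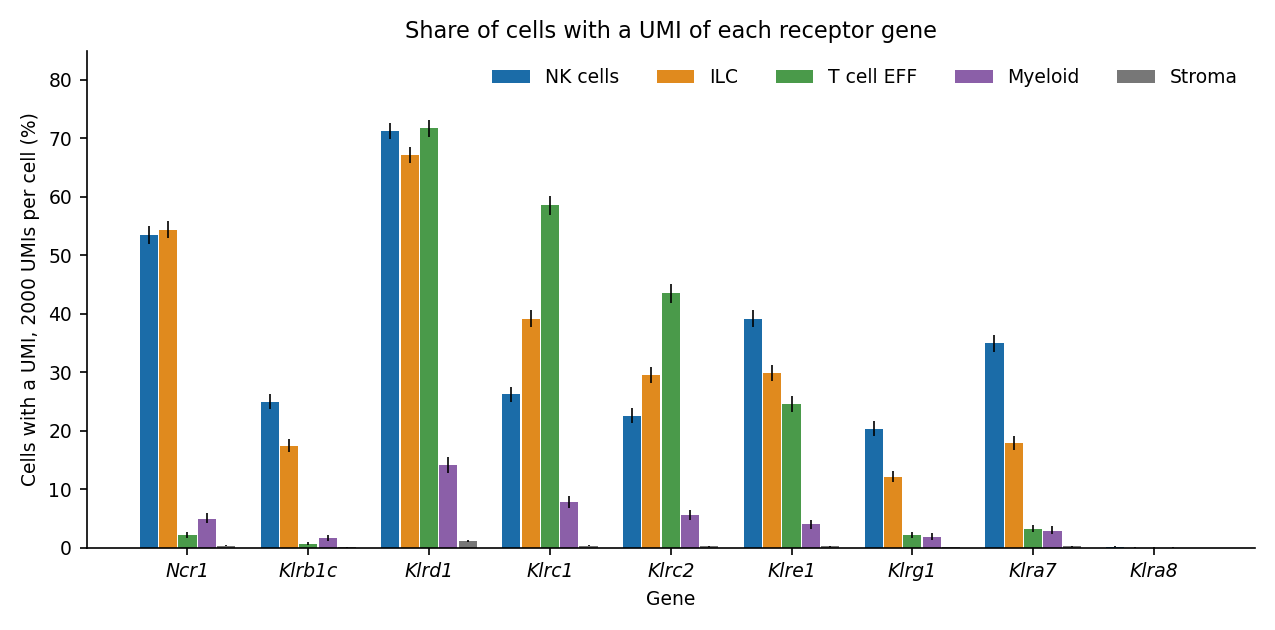
Share of cells with a UMI of each receptor gene after thinning to 2000 UMIs per cell, in percent of cells, for 5 labels. Bars are pooled shares and lines are exact 95% binomial intervals. *Klrc1* climbs from 26.2% of NK cells to 58.6% of T cell EFF, and *Klra7* falls from 35.0% to 3.30%.

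The UMIs of *Klra7* were concentrated in its positive cells. In its positive NK cells it averaged 2.40 UMIs after thinning, more than *Klrd1* at 2.12, although *Klrd1* was found in more of the cells. Of the *Klra7*-positive NK cells, 37.9% held 3 or more UMIs (35.4 to 40.4), against 3.60% for *Klrb1c* (2.56 to 4.91), 18.2% for *Ncr1* (16.6 to 19.9) and 28.95% for *Klrd1* (27.3 to 30.6). Without thinning, the share of *Klra7*-positive NK cells went from 35.0% only to 45.2%, whereas that of *Klrb1c* went from 25.0% to 53.9%. In ILC, where a smaller share of cells was positive, the positive cells averaged 2.08 UMIs, and 28.2% of them held 3 or more (25.1 to 31.4), which overlapped with *Klrd1* at 2.01 UMIs and 26.2% (24.6 to 27.8). The related *Klra3* (Ly49C) was alike, in 51.1% of NK cells and 33.1% of ILC with 2.45 and 2.08 UMIs per positive cell.

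An average NK cell showed 2.93 of the 9 genes after thinning, an ILC 2.68 and a T cell EFF cell 2.07. Over the libraries the mean was 2.82 to 3.12 in NK cells, 2.60 to 2.83 in ILC and 1.87 to 2.32 in T cell EFF, without overlap of T cell EFF with the others and with a small overlap of NK cells and ILC. No gene of the 9 was found in 3.34% of NK cells, 6.53% of ILC and 9.93% of T cell EFF, against 97.3% of Stroma and 72.4% of Myeloid cells. Without thinning, the means were 4.81, 5.12 and 3.61, so that ILC, with deeper cells, stood above NK cells.

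How often genes were found in the same cells differed by pair and by label. *Klrb1c* was in 24.8% of NK cells with *Ncr1* and 25.2% of those without, but in 19.3% (17.7 to 20.9) and 15.2% (13.7 to 16.9) of ILC. *Klrc2* was found in 41.8% of NK cells with *Klrc1* (38.8 to 44.7) and in 15.8% of those without (14.5 to 17.1). In ILC the shares were 40.1% and 22.7%, and in T cell EFF 50.5% and 33.7%. The 4 libraries agreed in direction, with 37.2%, 48.1%, 37.6% and 44.2% against 12.6%, 15.4%, 16.6% and 17.7% in NK cells. Both transcripts share sequence, as given above, and how much of this rests on reads assigned to the wrong copy was not tested. CD94 showed a weaker tie to NKG2A in NK cells. *Klrd1* was found in 73.7% of NK cells with *Klrc1* and 70.4% of those without, with overlapping intervals, but in 78.3% against 62.6% of T cell EFF cells and 72.4% against 63.9% of ILC.

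*Klra7* ran against the NKG2 genes in NK cells and ILC. It was found in 31.1% of NK cells with *Klrc1* (28.4 to 33.9) and 36.3% of those without (34.7 to 38.1). In ILC the shares were 13.8% (12.2 to 15.5) and 20.6% (19.1 to 22.1). The ILC difference was seen in each library, at 15.7%, 17.4%, 11.7% and 11.8% with *Klrc1* against 23.7%, 22.8%, 18.8% and 18.2% without. In NK cells, M6 had nearly equal shares, 32.7% and 33.2%, and the other 3 libraries had 29.8% to 32.1% with against 36.1% to 40.6% without. *Klrc2* gave the same direction, with *Klra7* in 28.96% of NK cells that had *Klrc2* (26.1 to 32.0) and 36.7% of those that did not (35.1 to 38.4). *Klra3* had the same direction in both labels, although its intervals overlapped, and such an overlap is no test of a difference. It was found in 48.3% of NK cells with *Klrc1* (45.3 to 51.3) and 52.1% without (50.3 to 53.9). In ILC its shares were 31.2% (29.1 to 33.4) and 34.2% (32.5 to 36.1). Thinned to 4000 UMIs, cells with *Klrc1* differed from those without in their *Klra7* share by -11.3 percentage points in NK cells and by -5.99 in ILC. *Klrg1* was also less frequent in ILC with *Klrc1*, at 9.77% (8.43 to 11.2) against 13.7% (12.5 to 15.1), whereas in NK cells its intervals overlapped, at 19.3% (17.0 to 21.7) and 20.8% (19.4 to 22.3). *Ncr1* ran the other way and was more frequent in cells with *Klrc1*, at 58.1% against 51.8% in NK cells and 61.0% against 50.1% in ILC. In T cell EFF, *Klra7* was found in 4.05% of cells with *Klrc1* and 2.25% of those without, near the share in Myeloid cells.

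**Figure D4:**
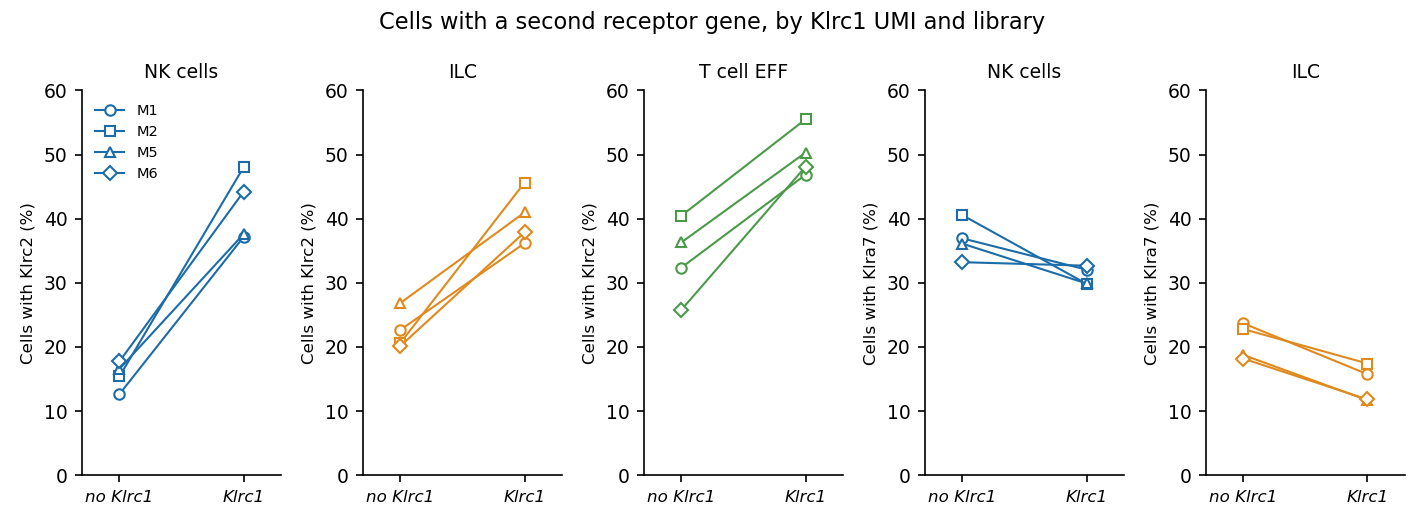
Share of cells with *Klrc2* (first 3 panels) or *Klra7* (last 2 panels) among cells without and with a UMI of *Klrc1*, in percent of cells thinned to 2000 UMIs. Each line is 1 library. *Klrc2* rises with *Klrc1* in every library and label shown, whereas *Klra7* falls in each library of ILC and, except for the nearly flat M6, of NK cells.

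Taking *Klra7* and *Klra3* as Ly49 genes and *Klrc1* and *Klrc2* as NKG2 genes, the 3 labels had different mixtures. *Klra3* was added to *Klra7* after its level was seen. Among NK cells, 44.4% had a Ly49 gene only, 24.5% had both kinds, 13.4% had an NKG2 gene only and 17.7% had neither. Among ILC, 22.7% had a Ly49 gene only, 21.1% both, 31.8% an NKG2 gene only and 24.3% neither. In T cell EFF an NKG2 gene only was the rule, at 66.8% of cells, with 1.72% for a Ly49 gene only. A Ly49 gene only was found in 42.7% to 47.4% of NK cells and 20.2% to 25.0% of ILC over the libraries, and an NKG2 gene only in 12.6% to 13.9% and 29.7% to 35.8%. The share with neither kind changed its order between libraries, since in M2 it was 22.97% of ILC and 19.5% of T cell EFF. At 2000 UMIs per cell a missing UMI does not show that a gene was off.

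**Figure D5:**
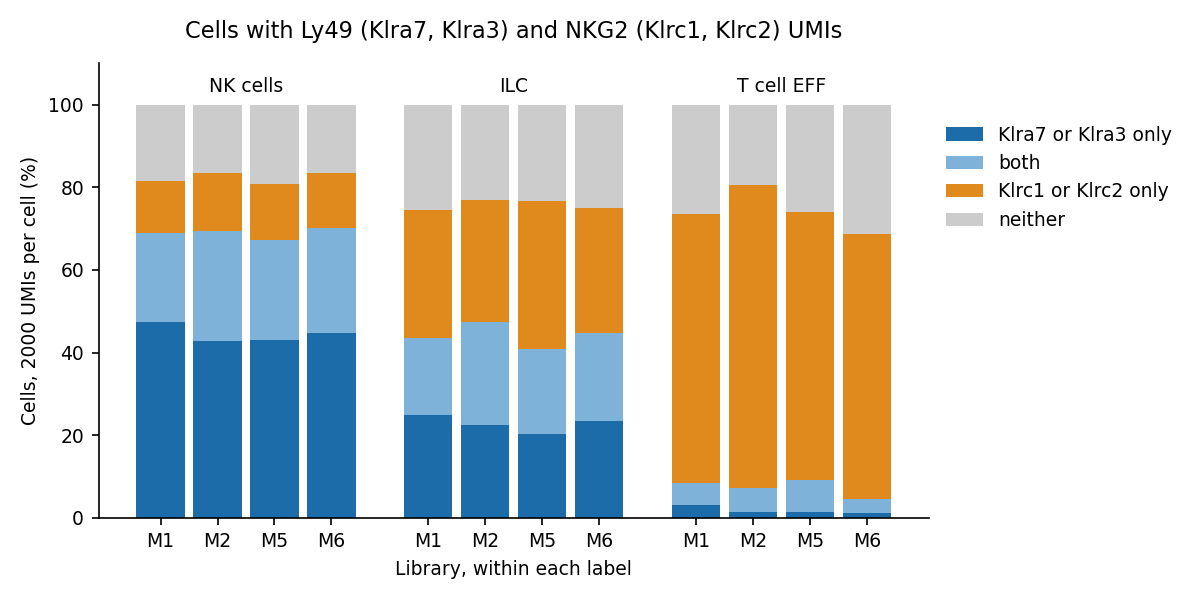
Share of cells, in percent, with a UMI of *Klra7* or *Klra3* only, of both kinds, of *Klrc1* or *Klrc2* only, or of neither, after thinning to 2000 UMIs. Each bar is 1 library within a label. The Ly49-only part is 42.7% to 47.4% in NK cells and 3.16% or less in T cell EFF.

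Since ILC stood between NK cells and T cell EFF for several genes, the ILC were split by a UMI of a CD3 chain (*Cd3d*, *Cd3e* or *Cd3g*), which belong to the T cell receptor complex. Such a UMI was present in 46.2% of ILC, in 25.7% of NK cells and in 99.4% of T cell EFF. The 2490 ILC without a CD3 chain had 550.3 CPM of *Ncr1*, above the 446 of NK cells without one, and the 2138 with a CD3 chain had 341. In each library ILC without CD3 had the higher value, at 529, 550.4, 586 and 529.8 against 318, 389.7, 352 and 323 CPM. *Klrb1c* went from 98.8 to 57.4 CPM, *Klra7* from 199.7 to 144 and *Klrc1* from 282 to 238. None of these 4 genes was higher in the ILC with a CD3 chain. Cells with a CD3 chain were deeper, at a median of 13329 against 7659.5 UMIs in ILC, and had more of the myeloid *Lyz2*, at 825 against 127 CPM, and of *Cd8a*, at 110.2 against 2.24. The part of these in the lower NK receptor levels was not tested. In NK cells *Ncr1* had 457 CPM with and 446 without a CD3 chain, and was found in 57.6% (54.6 to 60.5) and 52.0% (50.3 to 53.8) of cells. Its level was higher with a CD3 chain in M6, at 478 against 418 CPM, and lower in the other 3 libraries. *Klrb1c* was lower with one, at 91.9 against 121 CPM and 20.5% (18.2 to 22.998) against 26.6% of cells (25.1 to 28.2).

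*Eomes*, a T-box factor of mature NK cells, was detected in 48.3% of NK cells and 26.2% of ILC after thinning. ILC with *Eomes* had more *Klra7* than those without, at 23.9% of cells (21.5 to 26.5) against 15.8% (14.5 to 17.0), and less *Klrc1*, at 34.8% (32.1 to 37.6) against 40.7% (39.1 to 42.4). The *Klra7* share was higher with *Eomes* in each library, at 31.6%, 24.9%, 21.8% and 19.5% against 17.5%, 18.4%, 14.1% and 14.3%. In NK cells the shares lay close together, with *Klra7* in 34.9% and 35.0% of cells and *Klrc1* in 26.3% and 26.1%. Before thinning, NK cells counted as without *Eomes* still had 169 CPM of it, against 506 in those with it. In ILC the levels were 102 and 314 CPM. A missing UMI thus did not mark cells lacking *Eomes*, so the close shares cannot tell whether these genes go with it. The median depth was 4749.5 UMIs in NK cells with *Eomes* and 6777.5 in those without. The *Klra7* level in NK cells was 425, 475, 417 and 357 CPM with *Eomes* and 378, 343, 339 and 409 without, so that M6 went against the other 3 libraries. *Klrg1* was less frequent in NK cells with *Eomes*, at 17.9% (16.3 to 19.6) against 22.7% (21.0 to 24.5). In these NK cells *Lyz2* had 90.7 CPM with and 160.02 without *Eomes*, and *Cd8a* had 4.96 and 8.75. *Itga1* was found in 6.43% of NK cells with *Eomes* and 11.5% of those without. The part of these genes and of depth was not tested. *Lyz2* had 484 CPM in ILC with and 576 in ILC without *Eomes*, and *Cd8a* had 50.7 and 73.6.

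*Klrg1* in NKT, T cell EFF and T cell MEM was more frequent in cells with *Foxp3*, the transcription factor of regulatory T cells, a split made after its level in NKT had been seen. Of the cells labelled NKT, 282 had a *Foxp3* UMI, and 18.9% of these had *Klrg1* after thinning (14.4 to 24.1), against 3.16% of those without (1.74 to 5.25). The level was 249, 276, 149 and 89.7 CPM with *Foxp3* and 32.5, 38.7, 15.4 and 14.6 without, higher in each library. Cells with *Foxp3* were deeper before thinning, at a median of 5132 against 3925 UMIs in NKT and 16231.5 against 9854 in T cell EFF. The part of this depth in the *Klrg1* shares was not tested. T cell EFF gave 15.2% (11.2 to 20.0) and 1.10% (0.772 to 1.52), and T cell MEM 11.9% and 2.21%. *Klrd1* ran the other way, at 11.5% of NKT cells with *Foxp3* and 42.7% of those without, and at 36.6% and 74.7% of T cell EFF. T cell EFF with *Foxp3* numbered 25, 21, 132 and 102 over the libraries. In T cell EFF without *Foxp3*, *Klrg1* had 5.25, 5.23, 10.2 and 7.01 CPM. The part of the *Foxp3* cells in the library differences of *Klrg1* was not tested. The 78 T cell EFF cells with *Klrg1* had *Klrc1* in 30.8% (20.8 to 42.2) and those without *Klrg1* in 59.2% (57.5 to 60.8). Of these 78 cells, 42 had a *Foxp3* UMI, and *Klrc1* was found in 25.4% of T cell EFF with *Foxp3* and 61.4% without. The part of the *Foxp3* cells in the lower *Klrc1* share was not tested.

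Among the other genes of these pathways, from a list written with earlier results known, the *Klr* genes mostly shared the pattern of *Ncr1*. Of 29 listed genes, 25 had a mean of at least 1 CPM in NK cells and T cell EFF, and 14 of them were over 2-fold higher in NK cells and 1 was over 2-fold lower, against the 3.42% and 6.54% of all genes given above. The median log2 ratio was 2.08. Among the 13 *Klr* genes tested, 10 were over 2-fold higher in NK cells and none was lower. *Klra3* had 523 CPM in NK cells, 293 in ILC and 31.1 in T cell EFF, more than *Klra7* in each label. *Klra1* had 38.1, 22.5 and 1.03 CPM, *Klra5* 40.0, 42.0 and 6.73, and *Klra9* 11.8, 6.60 and 0.894. Counts of *Klra* genes were made against a C57BL/6J reference, and how well Balb/c transcripts match it was not tested. The NKR-P1 genes *Klrb1f*, *Klrb1a* and *Klrb1b* had 82.4, 37.0 and 20.7 CPM in NK cells, 83.3, 29.9 and 17.9 in ILC, and 4.72, 2.13 and 1.62 in T cell EFF. *Klrk1*, which encodes the activating NKG2D, was even across the labels like *Klrd1*, at 379, 333 and 369 CPM.

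Adaptors of activating receptors split in the same way. *Tyrobp* (DAP12), used by NKG2C and activating Ly49, had 1659 CPM in NK cells, 1395 in ILC and 129 in T cell EFF, where *Klrc2* was highest. *Hcst* (DAP10), used by NKG2D, had 187, 193 and 205 CPM. Of the phosphatases that inhibitory receptors recruit, *Ptpn6* (SHP-1) was the 1 listed gene over 2-fold lower in NK cells than in T cell EFF, at 40.7 against 96.3 CPM, with 66.6 in ILC. *Ptpn11* (SHP-2) had 42.5, 47.3 and 64.2 CPM, and *Inpp5d* (SHIP1) 98.1, 90.2 and 50.7. Of the ligands of NKR-P1 receptors, *Clec2d* had 70.0, 63.9 and 55.3 CPM and *Clec2i* 28.7, 24.2 and 5.74.

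Over 34 sums of a label in a library with at least 50 cells, from 9 labels, the likeness of every gene to each member was measured by the correlation of log2(CPM + 1), and the 3 highest are given. These values are descriptions, since sums of a library share its depth and cells. The summed level of the 9 was most like *Ctsw* (Pearson's r = 0.99), *Nkg7* (0.99) and *Gzmb* (0.99) among 10454 genes. *Ncr1* was most like *Klrb1c* (0.99), *Clnk* (0.95) and *Klrb1f* (0.95), and *Klrb1c* was most like *Ncr1*, *Klrb1f* (0.96) and *Clnk* (0.95). *Klrd1* was most like *Nkg7* (0.99), *Ctsw* (0.98) and *Atp8b4* (0.98), and *Klre1* was most like *Prf1* (0.98), *Nkg7* (0.98) and *Gzmb* (0.97). *Klrc1* was most like *Klrc2* (0.98), *Cd160* (0.97) and *Klrd1* (0.97), and *Klrc2* was most like *Klrc1*, *Klrd1* (0.98) and *Nrgn* (0.97). *Klra7* was most like *Ada* (0.96), *Tmem2* (0.96) and *Klrb1f* (0.96). *Klrg1* had the weakest likeness, to *Reep5* (0.92), *Trdc* (0.92) and *Bcl2l11* (0.91). *Klra8* had too few UMIs to enter.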

How the data were processed

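Single-cell mRNA-seq counts were deposited by the authors as 1 table of UMIs per gene and cell, made with Cell Ranger 3.0.2 on mm10 with Ensembl annotation, together with 1 cell type label and 1 library name per cell. The values are whole counts and were not normalized. Removal of doublets is not given in the sources used here. Library totals were 158337797 to 315577167 UMIs over 7160 to 10294 cells.

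UMIs were summed per label and library with Python 3.11.15, numpy 2.4.6 and pandas 2.3.3, and given as CPM. Ratios of counts have exact 95% binomial intervals and shares of cells have Clopper-Pearson intervals (scipy 1.17.1). For shares, each cell was thinned to 2000 UMIs, a step tested on simulated data. Where no cell was positive, the limit was 3 counts. Doublets were scored with Scrublet in scanpy 1.11.5, whose automatic threshold marked 0 cells in M5 and M6, so that a score of 0.25 was used in an alternative. Gene positions came from GENCODE M21 and figures from matplotlib 3.10.9. Genes are named as members, as listed pathway genes of at least 10 CPM in 1 of the 3 labels, as the genes most like each member, or with the reason given. A comparison of protein sequences was not made. The members and lists were chosen with earlier results of these data known. No p-value is given, because libraries were not matched to groups and cells are not replicates.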

Additional observations from a re-analysis of the deposited data

How the results depend on the processing

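No paired analysis was possible because the 4 libraries were not matched to the labelled samples and no comparison had a test. No alternative turned the direction of a difference between labels in summed level. The summed level of the 9 genes in NK cells over ILC, 0.23 on the log2 scale, was 0.19 as a mean over cells, 0.21 without cells of high mitochondrial share, 0.20 without cells of high doublet score, 0.038 between cells without a CD3 chain, and 0.21 to 0.26 on leaving out each library. Without CD3, the genes over 2-fold higher in NK cells than in ILC went from 1 to 0, since *Klra7* had 395 against 199.7 CPM. NK cells over T cell EFF, 0.56, was 0.43 as a mean over cells, 0.58 as the median of the 4 libraries, 0.48 by doublet score, 0.60 for NK cells without CD3, and 0.52 to 0.61 on leaving out a library. ILC over T cell EFF, 0.33, was 0.24, 0.35, 0.28 and 0.56 in the same order, and 0.31 to 0.36 on leaving out a library. The mean number of the 9 genes in an NK cell, 2.93, was 1.85 at 1000 UMIs, 4.13 at 4000 UMIs, 4.81 unthinned and 2.88 to 2.96 on leaving out a library. In ILC, 2.68 became 1.69, 3.86 and 5.12, with 2.72 by doublet score, 2.90 without CD3 and 2.64 to 2.71 on leaving out a library. In T cell EFF, 2.07 became 1.33, 2.79 and 3.61, with 2.11 by doublet score and 1.99 to 2.13 on leaving out a library. Thinning to fewer UMIs lowers the number found by construction. Thinning to 4000 UMIs also left out the cells below that depth. The cause of the other shifts was not tested. The splits by CD3, *Eomes* and *Foxp3* and the shares of cells with 2 genes were chosen after the data were seen. In NK cells, the difference in *Klra7* share between cells with and without *Klrc1* was -5.59 percentage points by doublet score, -11.3 at 4000 UMIs, and -7.07 to -3.84 on leaving out a library. Alternatives were made for single-gene values, the CD3 and *Eomes* splits, shares of cells with 2 genes and counts of all genes past 2-fold. Of these, 224 lay within a set limit of the reported value and 106 beyond it. The limit was counting error for values and a fixed fold for counts of genes. For the summed levels, the counts of receptor genes and the mean numbers of genes, 53 lay within it and 37 beyond. The order of NK cells and ILC turned for *Ncr1* among cells without a CD3 chain, at 446 against 550.3 CPM, and for the mean number of genes without thinning, at 4.81 against 5.12.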
